A study of Mus musculus with 4 samples.

Results

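Het GFP+ cells were set against null GFP- cells, whose libraries are 2 of the 4 array libraries made from cells sorted out of mouse adipose tissue. They were picked out by their titles, het GFP+ number 2 and null GFP- number 3, with earlier results of these data known. The remaining libraries, null GFP+ numbers 1 and 3, were used as a scale of noise. The het GFP+ cells carried the label PPARG het and had been gated as GFP-positive. The null GFP- cells carried the label PPARG null and had been gated as GFP-negative, and the null GFP+ cells were PPARG null and GFP-positive. All mice were labelled Black 6 and aged 2 months, while the study's methods describe a C57BL/6-129/SV mixed background. In the AdipoTrak system of that study a tTA transactivator sits in the Pparγ locus and switches on TRE-H2B-GFP, a nuclear green fluorescent protein, so that GFP marks cells in which the Pparγ locus has been active. Control AdipoTrak mice (PPARγtTA; TRE-H2B-GFP; TRE-Cre) keep an untargeted Pparγ allele, and were taken here as the source of the het cells. For the mutant cells the results of the study name AT-PPARγ-LOF mice (PPARγf/tTA; TRE-Cre; TRE-H2B-GFP), in which Cre is driven in the Pparγ lineage, whereas its array methods name Sox-PPARγ-LOF mice (Sox2-Cre; PPARγf/tTA; TRE-H2B-GFP), in which Cre acts in the epiblast. The labels do not say which strain was used, how many mice each library holds, or what the numbers in the titles mean. Sorting was done on live stromal vascular cells, the fraction left after adipocytes have floated off.

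The stromal vascular fraction of fat holds fibroblast-like progenitors, vessel cells and many leukocytes. PPARγ is the nuclear receptor that drives adipocyte differentiation, and GFP+ cells of the AdipoTrak system are enriched for adipose progenitors. GFP- cells are the rest of the sorted fraction, in which mast cells, macrophages, dendritic cells, granulocytes and unmarked stromal cells can all be present. The comparison therefore crosses both the genotype and the gate, and those cannot be told apart here. With 1 library on each side, every difference below is a fold without a test. The null GFP+ libraries are the only ones to share a label, so the difference between them is the only measure of spread.

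Pparg went against the labels. Its deposited signal, in intensity units, was 188 in the het GFP+ library and 209 in the null GFP- library, against 3217 and 2479 in null GFP+ 1 and 3. Where the probe lies relative to the deleted part of the gene was not examined. The 17 mast cell genes tested summed to 110451 intensity units in het GFP+, 112034 in null GFP-, and 3223 and 3167 in null GFP+ 1 and 3. The progenitor and stromal genes were bright on every array, with summed signals of 379534 in het GFP+, 376754 in null GFP-, and 358021 and 312212 in null GFP+ 1 and 3. Throughout, het GFP+ and null GFP- stand for the libraries labelled so, and each direction is by label.

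Of the 4 libraries, het GFP+ and null GFP- were the most alike. Of 9975 genes tested, 206 (2.07%) lay over 2-fold apart between them, whereas 260 (2.61%) did between the null GFP+ libraries. Het GFP+ stood over 2-fold apart from null GFP+ 1 for 918 genes (9.2%) and from null GFP+ 3 for 1159 genes (11.6%). For null GFP- the counts were 1001 and 1038 genes. The correlation of log2 signals across genes, which are not independent replicates, was 0.9821 for het GFP+ and null GFP- and 0.9798 for the null GFP+ pair. By this measure het GFP+ and null GFP- resembled each other about as closely as the libraries that shared a label.

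A difference is given on the log2 scale as het GFP+ minus null GFP-, after the array background had been subtracted. A gene was called apart where its brighter library exceeded the detection signal of 154 intensity units and the difference was over 2-fold. A dim library was counted no lower than that detection signal, so that the fold is then written "at least", which is a bound on the background-corrected scale only. Since background is subtracted, a fold here is larger than the plain ratio of deposited signals. Of the 76 genes over 2-fold that the rule for named genes picked, 50 stayed over 2-fold without background correction, and those that did not were mostly dim. By this rule 91 genes (0.912%) were higher in het GFP+ and 115 (1.15%) were lower, with 9 of the higher and 19 of the lower known only as bounds. For 197 of the 206 genes (1.97% of all tested) the difference exceeded that of the same gene between the null GFP+ libraries, which was so for 87 higher and 110 lower genes.

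The null GFP+ pair set a wide scale. The 95th percentile of the absolute difference was 0.73 between het GFP+ and null GFP- and 0.80 between the null GFP+ libraries, and the 99th percentile was 1.25 and 1.30. Over 3-fold, 26 genes were higher and 21 lower in het GFP+, against 51 genes apart within the null GFP+ pair. Only at larger folds did het GFP+ and null GFP- hold more genes: 9 were higher and 11 lower over 4-fold, against 16 in the pair, and 3 were higher and 1 lower over 8-fold, against 1 in the pair. The genes over 8-fold were Myl1, Pvalb and Acta1 on the higher side and Xist on the lower side.

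**Figure D1:**
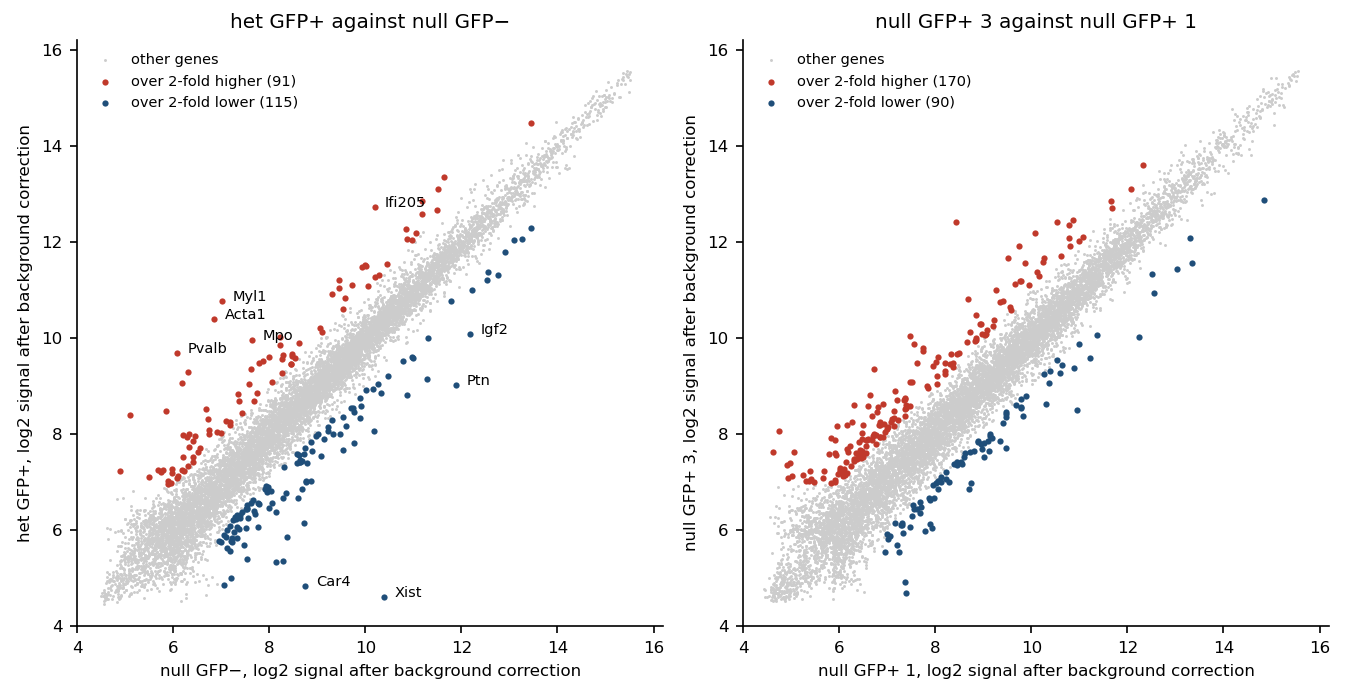
Left, log2 signal of each of 9975 genes after background correction in the library labelled het GFP+ (vertical) and null GFP- (horizontal), with genes over 2-fold higher in red (91) and lower in blue (115). Right, the same for null GFP+ 3 against null GFP+ 1, where 170 genes were over 2-fold higher and 90 lower, so the cloud is about as wide although both libraries carry 1 label.

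**Figure D2:**
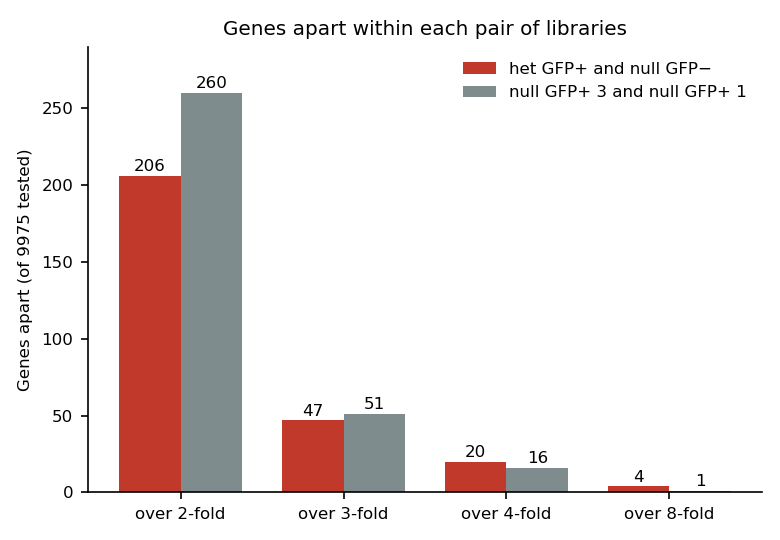
Number of genes apart by over 2-, 3-, 4- and 8-fold between het GFP+ and null GFP- (red) and between the null GFP+ libraries (grey). The pair with a shared label held more genes over 2-fold (206 in het GFP+ against null GFP-, 260 in the pair) and fewer over 4-fold (20 and 16 in the same order).

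Contractile genes of fast skeletal muscle gave the largest differences on the higher side. Of 40 skeletal muscle genes listed, 21 passed the detection filter, and 7 of these were over 2-fold higher in het GFP+, against 0.912% of all genes. A gene that is bright in only 1 library passes the filter by that library, so the count describes these genes and supports nothing further. Myl1, a myosin light chain of fast fibres, read 1834 in het GFP+ and 222 in null GFP-, with 205 and 384 in null GFP+ 1 and 3, which is 13.4-fold higher in het GFP+. Its 2 probes differed by 1.68 and 3.75 on the log2 scale, and with their mean the difference was 3.25. Pvalb, the calcium buffer of fast fibres, read 910.3 in het GFP+ and 160 in null GFP-, with 113 and 128 in null GFP+, a 12.2-fold difference. Acta1, the skeletal muscle actin, read 1442 in het GFP+ and 208 in null GFP-, with 137 and 143 in null GFP+, and was 11.7-fold higher. For all 3 genes het GFP+ stood alone, and the next brightest library was null GFP+ 3 for Myl1 and null GFP- for Pvalb and Acta1.

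Further contractile genes and a calcium pump gene followed in size. Tnnc2, the fast troponin C, read 715 in het GFP+ and 172 in null GFP- (7.86-fold higher), with 149 and 162 in null GFP+. Mylpf, the regulatory light chain of fast myosin, read 624 in het GFP+ and 165 in null GFP- (7.30-fold higher), with 168 and 172 in null GFP+. Atp2a1, which pumps calcium back into the sarcoplasmic reticulum, read 459 in het GFP+ and 195 in null GFP- (3.58-fold higher), with 144 and 148 in null GFP+. For Tnni2, the fast troponin I, the signals were 804 in het GFP+, 314 in null GFP-, and 140 and 155 in null GFP+, a log2 difference of 1.68. Null GFP- was thus the second brightest library for Atp2a1 and Tnni2, above both null GFP+ libraries. These genes share a tissue and a fibre type, and are not independent observations.

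The muscle list did not move as a whole. Its median difference was 0.60, against -0.03 over all genes tested, and it was 0.09 when genes that failed the detection filter were counted too. Ampd1, the muscle AMP deaminase, read 211 in het GFP+ and 343 in null GFP-, and Tpm2, a tropomyosin also made by smooth muscle, read 320 in het GFP+ and 556 in null GFP-, so these 2 were over 2-fold lower by their brightest probe. The 2 probes of Tpm2 pointed opposite ways, at -1.03 and 1.16 on the log2 scale. Ckm, the muscle creatine kinase, was dim at 193 in het GFP+ and 113 in null GFP-. The slow-fibre genes Tnnc1 (182 in het GFP+ and 183 in null GFP-) and Myl2 (198 and 209 in the same order) differed little. Of 14 satellite cell and myoblast genes 6 were tested and none was over 2-fold apart. Myog, the myoblast transcription factor, read 166 in het GFP+ and 136 in null GFP-, close to the detection signal. In a sorted bulk library, fewer cells of a type and less RNA per cell cannot be told apart.

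Promoters of the 5 muscle genes with the largest differences are shown, with and without a match. RefSeq sequence of build GRCm38.p6 from 250 bases before to 50 bases after the start site was present for 6 of the 7 genes, in 7 promoters. Myogenic factors bind E-boxes, and the palindrome CAGCTG, which reads the same on both strands, was the only motif looked for. It stood in 4 of the 7 promoters (Myl1, Acta1, Mylpf and Atp2a1) and in none of those of Pvalb and Tnnc2, against 5355 of all 32851 promoters in the table (16.3%). A match describes the letters and is not evidence of binding. The promoters of Myl1 (chr1:66945007-66945306, minus strand, motif from base -224), Acta1 (chr8:123894726-123895025, minus strand, motif from base -221) and Mylpf (chr7:127211358-127211657, plus strand, motif from base -51) read as follows on the gene's strand, with those of Pvalb (chr15:78206351-78206650 and chr15:78204188-78204487, minus strand) and Tnnc2 (chr2:164779685-164779984, minus strand) after them. Capitals mark the motif, and bases are counted back from the start site.
Myl1: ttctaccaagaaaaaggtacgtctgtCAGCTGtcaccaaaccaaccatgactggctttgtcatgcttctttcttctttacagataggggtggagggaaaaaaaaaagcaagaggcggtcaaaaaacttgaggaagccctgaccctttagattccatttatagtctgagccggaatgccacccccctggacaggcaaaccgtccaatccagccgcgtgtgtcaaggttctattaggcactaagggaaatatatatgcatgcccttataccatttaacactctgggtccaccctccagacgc
Acta1: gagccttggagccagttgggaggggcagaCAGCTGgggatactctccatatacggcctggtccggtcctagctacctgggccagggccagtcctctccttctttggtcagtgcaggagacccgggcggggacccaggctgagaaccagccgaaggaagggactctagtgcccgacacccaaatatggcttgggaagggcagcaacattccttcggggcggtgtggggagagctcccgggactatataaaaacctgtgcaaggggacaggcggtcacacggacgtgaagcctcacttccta
Mylpf: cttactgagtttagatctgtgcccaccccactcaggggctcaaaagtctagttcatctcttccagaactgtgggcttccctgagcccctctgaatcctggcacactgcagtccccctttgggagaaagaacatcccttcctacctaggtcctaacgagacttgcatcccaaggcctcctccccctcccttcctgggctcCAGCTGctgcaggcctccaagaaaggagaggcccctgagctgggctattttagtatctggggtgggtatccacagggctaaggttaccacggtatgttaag
Pvalb, upstream start: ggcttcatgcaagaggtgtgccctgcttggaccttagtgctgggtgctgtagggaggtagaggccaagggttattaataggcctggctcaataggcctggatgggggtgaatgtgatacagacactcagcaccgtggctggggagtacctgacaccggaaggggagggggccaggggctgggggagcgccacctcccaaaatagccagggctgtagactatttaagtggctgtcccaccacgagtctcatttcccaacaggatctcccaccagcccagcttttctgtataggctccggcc
Pvalb, downstream start: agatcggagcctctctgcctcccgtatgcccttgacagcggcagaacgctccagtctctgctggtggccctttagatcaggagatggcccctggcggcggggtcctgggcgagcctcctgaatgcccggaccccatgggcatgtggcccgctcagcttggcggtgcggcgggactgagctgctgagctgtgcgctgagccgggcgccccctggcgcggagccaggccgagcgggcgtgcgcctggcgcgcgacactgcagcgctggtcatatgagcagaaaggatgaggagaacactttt
Tnnc2: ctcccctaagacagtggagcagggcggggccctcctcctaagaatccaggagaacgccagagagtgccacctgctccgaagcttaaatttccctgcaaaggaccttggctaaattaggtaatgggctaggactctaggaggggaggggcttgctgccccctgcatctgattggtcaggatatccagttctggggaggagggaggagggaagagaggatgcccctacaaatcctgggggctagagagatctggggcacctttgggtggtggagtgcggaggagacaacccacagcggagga

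**Figure D3:**
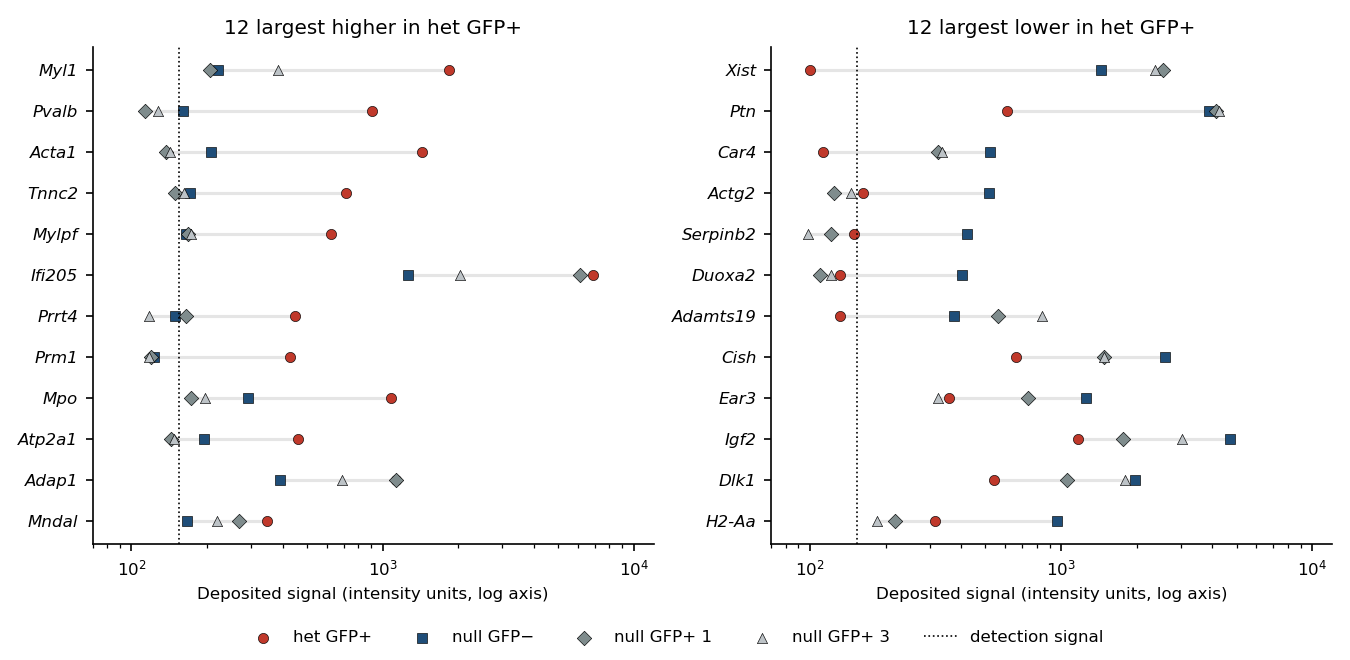
Deposited signals (intensity units, log axis) of the 12 largest higher genes (left) and 12 largest lower genes (right) by the rule for named genes, with het GFP+ as red circles, null GFP- as blue squares and null GFP+ 1 and 3 as grey diamonds and triangles. For Myl1, Pvalb, Acta1, Tnnc2 and Mylpf the het GFP+ circle stands alone on the bright side, and for Xist and Ptn it stands alone on the dim side.

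Outside muscle, the largest higher genes were of mixed kind. Ifi205 is described with its family below. Prrt4 read 448 in het GFP+ and 150 in null GFP-, with 166 and 117 in null GFP+, and was at least 5.75-fold higher. Prm1, a protamine of spermatids, read 428 in het GFP+ and 123 in null GFP-, with 120 and 118 in null GFP+, at least 5.42-fold higher. Without background correction the log2 difference was 1.54 for Prrt4 and 1.47 for Prm1. Adap1 read 1133 in het GFP+ and 391 in null GFP-, with 1133 and 688 in null GFP+ 1 and 3, so het GFP+ lay at the level of null GFP+ 1. With the mean of its probes in place of the brightest, the difference of Adap1 was 0.79 on the log2 scale and no longer over 2-fold.

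Mpo, Prtn3 and Elane, of the primary granules that immature neutrophils fill, were over 2-fold higher in het GFP+. The primary granule list was drawn up after the values had been seen, and these were 3 of its 7 tested members, against 0.912% of all genes called higher. The others were within 2-fold, with Ctsg at 273 in het GFP+ and 223 in null GFP-, Serpinb1a at 676 and 580.5, Fcnb at 159.7 and 128, and Cst7 at 162 and 185 in the same order. Mpo, the granule myeloperoxidase, read 1082 in het GFP+ and 292 in null GFP-, with 172 and 197 in null GFP+ (4.97-fold higher). With the mean of its probes the difference of Mpo was 1.64 on the log2 scale. Prtn3, proteinase 3, read 338 in het GFP+, 170 in null GFP-, and 243 and 404 in null GFP+, so that null GFP+ 3 was the brightest. Elane, neutrophil elastase, was above detection in het GFP+ alone, at 241 against 115 in null GFP-, 128 in null GFP+ 1 and 120 in null GFP+ 3, and was at least 2.40-fold higher. Without background correction the log2 difference was 0.99 for Prtn3 and 0.64 for Elane.

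The calprotectin genes of neutrophils had like signals. S100a8, the abundant calprotectin subunit, read 11929 in het GFP+ and 11799 in null GFP-, and its partner S100a9 read 6318 in het GFP+ and 6348 in null GFP-. Of 22 neutrophil genes tested 4 were over 2-fold higher, against 0.912% of all genes, and 0 lower. The median was 0.32, and 18 lay above 0, against 4554 of all 9975 genes. The fourth higher gene was Hp, haptoglobin, at 895 in het GFP+ and 403 in null GFP-, which was brighter still in null GFP+ 1 and 3 at 1611 and 2163. The summed signal of the list was 41918 in het GFP+ and 37950 in null GFP-, against 7254 and 6249 in the null GFP+ libraries.

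Mast cell genes were equal at very high signal. Of 17 tested, 1 was over 2-fold apart and the median difference was -0.02. Mcpt4, a mast cell chymase, read 20898 in het GFP+ and 19475 in null GFP-, with 184 and 132 in null GFP+. Cpa3, the mast cell carboxypeptidase, read 17932 in het GFP+ and 17212 in null GFP-. The exception was Fcer1a, the alpha chain of the high-affinity IgE receptor of mast cells and basophils, at 829 in het GFP+ and 327 in null GFP- (3.14-fold higher), with 139 and 138 in null GFP+. Fcer1g, the signalling chain that this receptor shares with Fc receptors of macrophages, read 2202 in het GFP+ and 794 in null GFP-, with 338 and 158 in null GFP+ (3.01-fold higher). The difference for Fcer1g did not exceed that within the null GFP+ pair, which was 1.90 on the log2 scale.

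Basophil and eosinophil genes ran the other way. This list too was made after the values had been seen. Of its 13 tested members 6 were over 2-fold lower in het GFP+ and 1, Fcer1a, was higher, against 1.15% and 0.912% of all genes. The median was -1.32, or -0.73 with dim signals held at the detection signal and -0.33 when genes that failed the detection filter were counted too. Ear3, an eosinophil-associated ribonuclease, read 358 in het GFP+ and 1252 in null GFP- (4.36-fold lower), with 742 and 325 in null GFP+ 1 and 3. Prss34, a basophil protease, read 348 in het GFP+ and 733 in null GFP- (a log2 difference of -1.32), with 110 and 104 in null GFP+. Cyp4f18, which oxidizes leukotriene B4, read 222 in het GFP+ and 558 in null GFP- (3.59-fold lower), with 109 and 112 in null GFP+. Napsa read 223 in het GFP+ and 528 in null GFP- (3.35-fold lower), with 123 and 114 in null GFP+. The remaining genes lower were Rnase2a (349 in het GFP+ and 800 in null GFP-) and Ltc4s, leukotriene C4 synthase (358 in het GFP+ and 693 in null GFP-). Ltc4s read 233 and 415 in null GFP+ 1 and 3, and its difference did not exceed that of the null GFP+ pair. Il4 was similar at 445 in het GFP+ and 564 in null GFP-, and Prg2, the eosinophil major basic protein, was 497 in het GFP+ and 361 in null GFP-. The eosinophil ribonucleases are close paralogues that one probe may read together.

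MHC class II genes, by which dendritic cells, macrophages and B cells present antigen, were lower in het GFP+. All 7 tested members of 11 listed lay below 0, 4 of them over 2-fold, with a median of -1.19, and against 1.15% of all genes called lower. Between the null GFP+ libraries the list had a median of -0.72 for number 3 minus number 1, with all 7 below 0 and 1 over 2-fold apart. H2-Aa read 316 in het GFP+ and 965 in null GFP-, with 219 and 185 in null GFP+ (3.91-fold lower). H2-Eb1 read 1107 in het GFP+ and 2621 in null GFP-, with 524 and 408 in null GFP+ (2.49-fold lower). H2-Ab1 read 2734 in het GFP+ and 6116 in null GFP-, with 1124 and 617 in null GFP+ (2.28-fold lower). H2-DMa, which loads peptide, read 477 in het GFP+ and 1051 in null GFP-, with 302 and 220 in null GFP+ (2.49-fold lower). Cd74, the invariant chain, was 5238 in het GFP+ and 8391 in null GFP-. In each case the order of the libraries was null GFP-, het GFP+, null GFP+ 1 and null GFP+ 3. H2-DMa had a difference of -0.70 when null GFP+ 1 was left out of the processing, and H2-Ab1 one of -0.77 with the mean of its probes. The list median was -0.85 in both settings, and over all settings it lay between -1.19 and -0.69.

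Macrophage genes leaned to the higher side while class II did not. Of 33 macrophage and dendritic cell genes tested 4 were over 2-fold higher, against 0.912% of all genes, and 0 lower. The median was 0.47, and 26 lay above 0, against 4554 of all 9975 genes. Fcer1g, whose difference did not exceed that of the null GFP+ pair, was among the 4. Between the null GFP+ libraries the list had a median of -0.55 for number 3 minus number 1, with 29 below 0 and 5 over 2-fold apart. The shift was therefore no larger between het GFP+ and null GFP- than between libraries of 1 label. C1qc, a chain of the complement initiator C1q that tissue macrophages make, read 4367 in het GFP+ and 1956 in null GFP- (2.29-fold higher), with 437 and 292 in null GFP+. C1qb was just inside 2-fold at 4778 in het GFP+ and 2440 in null GFP-. Gpnmb, a glycoprotein of lipid-laden macrophages, read 6586 in het GFP+ and 2956 in null GFP- (2.27-fold higher), and 5505 and 5093 in null GFP+. Ms4a6d read 792 in het GFP+ and 441 in null GFP-, and dropped under 2-fold with the mean of its probes (0.54 on the log2 scale). Adgre1, a surface receptor of mature macrophages, was 378 in het GFP+ and 491 in null GFP-. Summed over the list the signal was 76236 in het GFP+ and 57501 in null GFP-, against 20126 and 15876 in the null GFP+ libraries.

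Of 17 complement genes tested 4, C1qc among them, were over 2-fold higher, against 0.912% of all genes, and 0 were lower. The median was 0.51, with 12 above 0 and 5 below. C7, a component of the membrane attack complex, read 3011 in het GFP+ and 1113 in null GFP- (2.86-fold higher), and 1686 and 787 in null GFP+ 1 and 3. C1s1, the C1s protease, read 1273 in het GFP+ and 628 in null GFP-, with 1405 and 623 in null GFP+, and its difference did not exceed that of the null GFP+ pair. C4a read 22839 in het GFP+ and 11261 in null GFP- (2.04-fold higher), with 20433 and 14913 in null GFP+. With the mean of its probes the difference of C4a was 0.96 on the log2 scale. C4a and C4b are near-identical, and a probe may read both. For C7, C1s1 and C4a alike, the libraries numbered 3 were the dimmer of each pair.

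Chemokine genes went both ways, with 4 of 35 tested higher and 3 lower, against 0.912% and 1.15% of all genes. Between the null GFP+ libraries 5 of the 35 were over 2-fold apart. Cxcl13, which attracts B cells, read 7445 in het GFP+ and 2402 in null GFP- (3.18-fold higher), and 8446 and 2846 in null GFP+ 1 and 3, so that the libraries numbered 3 lay together. Cx3cr1, the fractalkine receptor of monocytes and macrophages, read 412 in het GFP+ and 198 in null GFP- (3.04-fold higher), with 159 and 166 in null GFP+. Cxcl14 read 2995 in het GFP+ and 1118 in null GFP- (2.83-fold higher), with 3426 and 3273 in null GFP+. Ccl8 read 6215 in het GFP+ and 2418 in null GFP- (2.63-fold higher), with 1025 and 1605 in null GFP+. Lower in het GFP+ were Il6 (265 in het GFP+ and 501 in null GFP-), Cxcl9 (268 and 491 in the same order) and Ccl5 (172 and 252). Cxcl9 and Ccl5 fell under 2-fold without background correction, at -0.87 and -0.56 on the log2 scale. The deposited signals of Il6, an interleukin kept in this list, also lay less than 2-fold apart.

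Endothelial markers were slightly higher in het GFP+. Of 28 tested, 27 lay above 0, against 4554 of all 9975 genes. Over 2-fold higher were 4, against 0.912% of all genes, and the median was 0.53. Vwf, the von Willebrand factor, read 288 in het GFP+ and 183 in null GFP- (2.16-fold higher), with 326 and 407 in null GFP+. Egfl7 read 439 in het GFP+ and 264 in null GFP-, Emcn 350 in het GFP+ and 221 in null GFP-, and Aqp1 705 in het GFP+ and 398 in null GFP-, each between 2.01- and 2.02-fold higher. All 3 were far brighter in null GFP+, with Egfl7 at 2126 and 1760, Emcn at 1639 and 1186, and Aqp1 at 1599 and 2453. None of the 4 stayed over 2-fold without background correction (0.65 to 0.83 on the log2 scale), and Egfl7 was at 0.43 with the mean of its probes. Pecam1, which encodes CD31, was 291 in het GFP+ and 218 in null GFP-, and Hba-a1, a globin of red cells, was 8550 in het GFP+ and 4773 in null GFP-. The globin Hbb-bs was 9478 in het GFP+ and 5055 in null GFP-, 1.89-fold higher.

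Smooth muscle genes lay on the lower side. Of 21 mural and smooth muscle genes tested, 3 were over 2-fold lower, against 1.15% of all genes, and 0 higher, with a median of -0.28. Between the null GFP+ libraries the list had a median of 0.29 for number 3 minus number 1, with 16 genes above 0 and 3 over 2-fold apart. The shift of the list was therefore about as large between libraries of 1 label. Actg2, the enteric smooth muscle actin, read 163 in het GFP+ and 515 in null GFP- (5.98-fold lower), with 124 and 146 in null GFP+, so null GFP- stood alone. Acta2, the vascular smooth muscle actin, read 2462 in het GFP+ and 6048 in null GFP- (2.51-fold lower), with 3388 and 6755 in null GFP+ 1 and 3. Myh11, the smooth muscle myosin heavy chain, read 203 in het GFP+ and 340 in null GFP- (2.24-fold lower), with 221 and 374 in null GFP+. Acta2 and Myh11 were thus highest in the libraries numbered 3, and Myh11 was at -0.74 without background correction. Pdgfrb, the receptor through which PDGF-B recruits mural cells, was 983 in het GFP+ and 817 in null GFP-, a difference of 0.30, with 1188 and 1726 in null GFP+.

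Xist, which silences an X chromosome in female cells, was the largest lower gene. It read 100.2 in het GFP+, below the detection signal, and 1440 in null GFP-, with 2559 and 2371 in null GFP+ 1 and 3, at least 21.8-fold lower on the background-corrected scale. The log2 difference was -3.22 without background correction. By the mean of its probes the log2 difference was -2.15 in place of -4.44. Of the Y-linked genes, Eif2s3y read 729 in het GFP+ and 412 in null GFP-, with 408 and 252 in null GFP+, and Uty read 187 in het GFP+ and 179 in null GFP-, with 149 and 170 in null GFP+. Eif2s3y was just inside 2-fold (1.99-fold higher) and was above the detection signal in every library. The X-linked genes that escape inactivation were lower or equal, with Ddx3x at 413 in het GFP+ and 692 in null GFP-, Kdm6a at 797 in het GFP+ and 1268 in null GFP-, and Eif2s3x at 697 in het GFP+ and 688 in null GFP-. Kdm5c was dim at 119 in het GFP+ and 167 in null GFP-. The labels do not give the sex of the mice, and the part of sex in the other differences was not tested.

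Imprinted genes, which are expressed from 1 parental allele and include several fetal growth genes, held some of the largest lower values. This list was drawn up after the values had been seen. Of 23 tested, 4 were over 2-fold lower, against 1.15% of all genes, and 0 higher, with a median of -0.26. Igf2, insulin-like growth factor 2, read 1172 in het GFP+ and 4725 in null GFP- (4.29-fold lower), with 1770 and 3030 in null GFP+ 1 and 3. Dlk1, the preadipocyte factor that restrains adipogenesis, read 539 in het GFP+ and 1966 in null GFP- (4.20-fold lower), with 1054 and 1797 in null GFP+. Peg3 read 874 in het GFP+ and 2105 in null GFP- (2.58-fold lower), with 1708 and 2631 in null GFP+. Cdkn1c, a brake on the cell cycle, read 5076 in het GFP+ and 11200 in null GFP- (2.23-fold lower), with 7025 and 11105 in null GFP+. For these 4 genes het GFP+ was the dimmest library and null GFP+ 3 was brighter than null GFP+ 1. Others of the list differed little, such as Ndn (13869 in het GFP+ and 14437 in null GFP-), Igf2r (1114 and 1387 in the same order) and Gnas (4275 and 4069).

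The remaining largest lower genes had no list in common. Ptn, the growth factor pleiotrophin, read 612 in het GFP+ and 3880 in null GFP- (7.30-fold lower), with 4154 and 4263 in null GFP+, so het GFP+ stood alone. Car4, a membrane carbonic anhydrase, read 112 in het GFP+ and 523 in null GFP- (at least 6.97-fold lower), with 324 and 334 in null GFP+. Adamts19 read 131 in het GFP+ and 373 in null GFP- (at least 4.54-fold lower), with 559 and 840 in null GFP+. Cish, which cytokines induce through STAT5, read 661 in het GFP+ and 2588 in null GFP- (4.39-fold lower), with 1484 and 1488 in null GFP+. In contrast, Serpinb2 (150 in het GFP+ and 422 in null GFP-) and Duoxa2 (132 in het GFP+ and 403 in null GFP-) were at or below the detection signal in both null GFP+ libraries. Without background correction the log2 difference was -1.76 for Car4, -1.27 for Adamts19, -1.45 for Serpinb2 and -1.38 for Duoxa2. Serpinb2 and Duoxa2 were at least 5.33- and 5.02-fold lower, and null GFP- was the only library in which they were well above background.

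**Figure D4:**
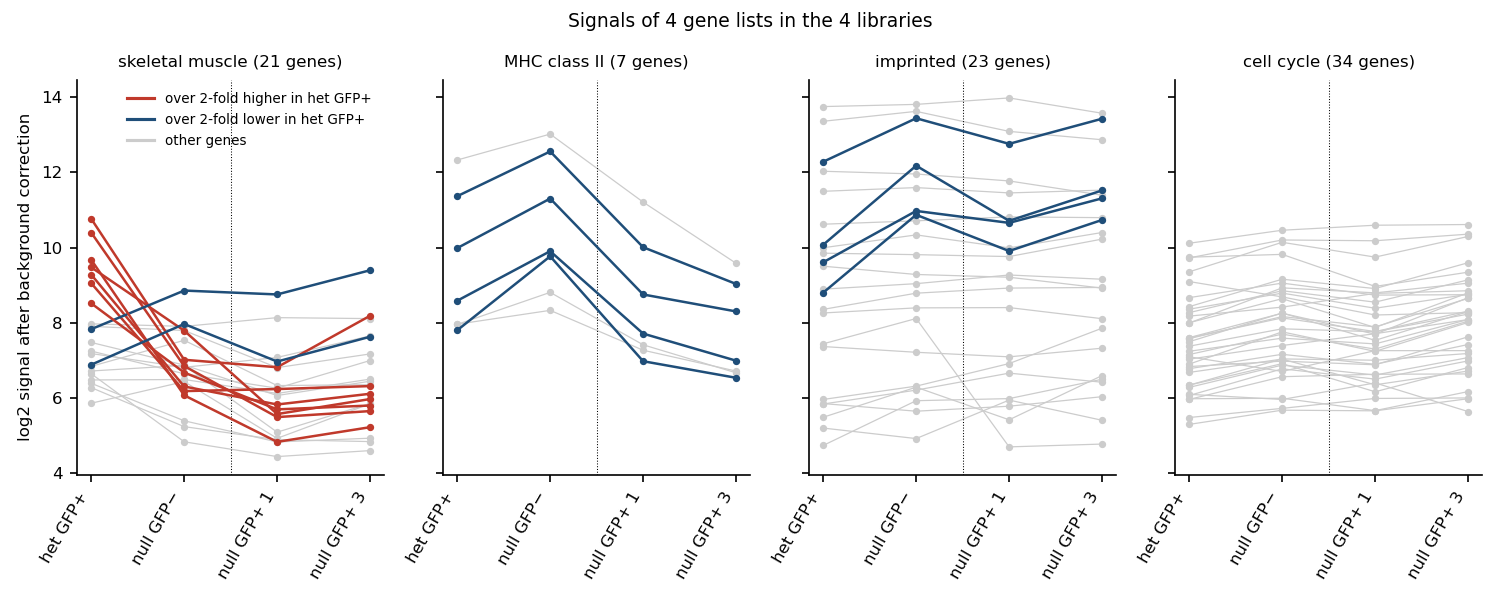
log2 signal after background correction of each tested gene of 4 lists across the libraries het GFP+, null GFP-, null GFP+ 1 and null GFP+ 3, with genes over 2-fold higher in het GFP+ in red and lower in blue. The 7 red muscle genes are bright in het GFP+, the MHC class II genes peak in null GFP-, the 4 blue imprinted genes are lowest in het GFP+, and most cell cycle genes are slightly lower in het GFP+ and null GFP+ 1 than in null GFP- and null GFP+ 3.

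The Ifi200 family, interferon-inducible proteins that sense DNA, split in direction. The list was made after the values had been seen, and in GRCm38.p6 the span of the tested genes holds 10 protein-coding genes, all 10 of the family. Of 7 tested, 3 were over 2-fold higher and 1 lower, against 0.912% and 1.15% of all genes. Ifi205 read 6889 in het GFP+ and 1261 in null GFP- (5.82-fold higher), with 6122 and 2036 in null GFP+ 1 and 3. Mndal read 346 in het GFP+ and 167 in null GFP- (3.42-fold higher), with 268 and 219 in null GFP+. Ifi207 read 4325 in het GFP+ and 2089 in null GFP- (2.12-fold higher), with 4036 and 2608 in null GFP+. Ifi202b ran opposite at 555 in het GFP+ and 1369 in null GFP- (2.76-fold lower), with 849 and 1686 in null GFP+, although with the mean of its probes the difference was -0.38. For all 4 genes het GFP+ lay nearer to null GFP+ 1 and null GFP- nearer to null GFP+ 3. These genes are close paralogues, so a probe may read more than its own gene. The wider interferon-induced list did not follow, with 0 of 24 higher, 1 lower (Cxcl9) and a median of -0.10.

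Cell cycle genes were lower in het GFP+ without any member passing 2-fold. Of 34 tested, 31 lay below 0, and the median was -0.47, against -0.03 over all genes. Cdc20, which triggers anaphase, read 348 in het GFP+ and 580.2 in null GFP-, with 537 and 624 in null GFP+. Bub1b, a spindle checkpoint kinase, read 212 in het GFP+ and 309 in null GFP-, with 244 and 350.3 in null GFP+. Between the null GFP+ libraries the same list had a median of 0.47 for number 3 minus number 1, with 33 genes above 0. The shift was therefore as large between libraries of 1 label as between het GFP+ and null GFP-. Ribosomal protein genes (0 of 46 apart, median -0.05) and respiratory chain genes (0 of 42 apart, median -0.05) showed no such shift.

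Counts for adipocyte, PDGF, adhesion and vessel growth genes were near the 2.07% called over all genes. Of 33 PPARγ target and adipocyte genes tested, 1 was over 2-fold higher and the median was -0.04. That gene, Car3, a carbonic anhydrase of adipocytes, read 276 in het GFP+ and 178 in null GFP-, against 3920 and 6566 in null GFP+. Without background correction the log2 difference of Car3 was 0.64, under 2-fold. Plin2, a lipid droplet coat protein, was 676 in het GFP+ and 562 in null GFP-, with 1795 and 1633 in null GFP+. Angptl4, a secreted inhibitor of lipoprotein lipase, was 6976 in het GFP+ and 5103 in null GFP-, with 15705 and 17427 in null GFP+. In the PDGF pathway 0 of 15 genes were apart, and the ligand gene Pdgfb was 186 in het GFP+ and 165 in null GFP-. Of 44 adhesion genes 0 were apart, the nearest being Cldn11 at 602 in het GFP+ and 1083 in null GFP-, and Cdh13 at 1121 in het GFP+ and 629 in null GFP-. Among 41 VEGF, angiopoietin and vasculogenic genes 1 was apart, Angpt1, which stabilizes vessels, at 245 in het GFP+ and 144 in null GFP-, with 269 and 159 in null GFP+, and its difference did not exceed that of the null GFP+ pair. Angpt1 too fell under 2-fold without background correction, at 0.67 on the log2 scale. Vegfa itself was 996 in het GFP+ and 1139 in null GFP-.

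Few stress genes were apart, and 3 clock genes were, against 2.07% over all genes. Of 33 immediate early genes 2 were over 2-fold lower, Nr4a2 (339 in het GFP+ and 598 in null GFP-) and Egr3 (251 in het GFP+ and 410 in null GFP-), and Fos was 19387 in het GFP+ and 19949 in null GFP-. Among heat shock genes Hspb1 alone was higher, at 2574 in het GFP+ and 1271 in null GFP- (2.11-fold), with 3859 and 2729 in null GFP+. Slc2a1, the glucose transporter GLUT1, was the only hypoxia and glycolysis gene apart, at 618 in het GFP+ and 1317 in null GFP-. In the circadian clock list, made after the values had been seen, 3 of 14 genes were apart. Nr1d1 (501 in het GFP+ and 258 in null GFP-) and Npas2 (245 in het GFP+ and 165 in null GFP-) were higher and Noct (180 in het GFP+ and 274 in null GFP-) was lower. With the mean of its probes the difference of Noct was -0.45. Without background correction all 3 fell under 2-fold, at 0.96 for Nr1d1, 0.57 for Npas2 and -0.61 for Noct on the log2 scale. Nr4a2 (-0.82) and Egr3 (-0.71) fell under it too. The other 11 clock genes, including Per1 at 1739 in het GFP+ and 1421 in null GFP-, stayed within 2-fold.

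Single members of the other lists were apart. Over 2-fold higher were Mzb1 of plasma cells (301 in het GFP+ and 187 in null GFP-), Comp of cartilage matrix (399 in het GFP+ and 230 in null GFP-), the homeobox gene Meox1 (237 in het GFP+ and 155 in null GFP-) and Gsta4 (229 in het GFP+ and 160 in null GFP-). Over 2-fold lower were Krt19, a keratin (157 in het GFP+ and 259 in null GFP-), the matrix gene Postn (187 in het GFP+ and 308 in null GFP-), Efemp1 (155 in het GFP+ and 247 in null GFP-) and Inhba, an activin subunit (142 in het GFP+ and 231 in null GFP-). All 8 were dim, under 400 intensity units in both libraries, and Postn had a difference of -0.95 with the mean of its probes. Without background correction all 8 fell under 2-fold. The higher genes then lay between 0.52 (Gsta4) and 0.80 (Comp) on the log2 scale, and the lower genes between -0.72 (Postn) and -0.58 (Inhba). Of the progenitor and stromal genes, Pdgfra was 10147 in het GFP+ and 9667 in null GFP-, and Dpp4 was 12582 in het GFP+ and 13869 in null GFP-. The Schwann cell and neural list had 0 of 12 apart, and the erythroid and platelet list 0 of 9.

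**Figure D5:**
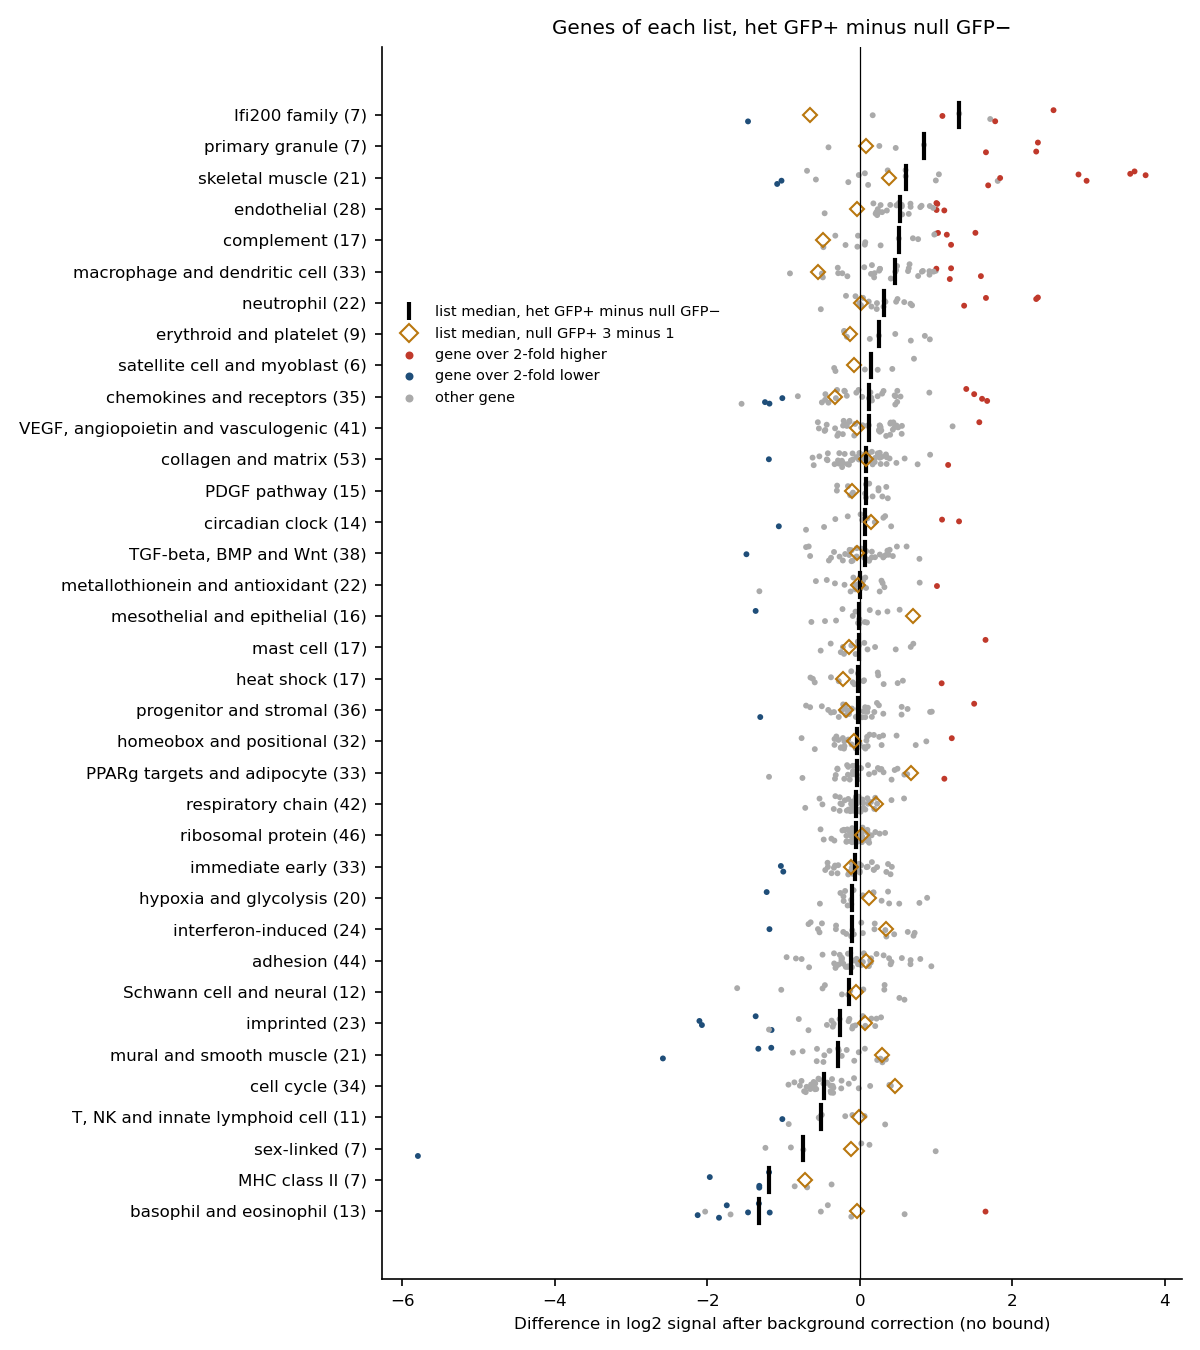
Difference in log2 signal, het GFP+ minus null GFP-, of each tested gene (no bound), by list with the number tested in brackets; B and plasma cells, with under 5 tested, are left out. Bars mark list medians and open diamonds the medians of null GFP+ 3 minus null GFP+ 1. For several lists these lie on the opposite side of 0, among them cell cycle (-0.47 and 0.47) and complement (0.51 and -0.48). The same holds for macrophage and dendritic cell (0.47 and -0.55), mural and smooth muscle (-0.28 and 0.29) and Ifi200 family (1.30 and -0.65).

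Of the 206 genes apart, 135 belonged to no list. The following were picked after their values had been seen. Dmkn read 2461 in het GFP+ and 788 in null GFP-, with 333 and 296 in null GFP+. Il1r2, the decoy receptor for interleukin-1, read 8875 in het GFP+ and 3012 in null GFP-, with 5103 and 3839 in null GFP+. Pla1a, a phospholipase, read 10529 in het GFP+ and 3280 in null GFP-, with 16865 and 11683 in null GFP+. Trf, transferrin, read 5025 in het GFP+ and 1942 in null GFP-, with 11147 and 10449 in null GFP+. On the lower side Akr1c18 read 2627 in het GFP+ and 7067 in null GFP-, with 895 and 716 in null GFP+. Mdk, midkine, the relative of pleiotrophin, read 2126 in het GFP+ and 4845 in null GFP-, with 5238 and 12459 in null GFP+, so that its difference did not exceed that of the null GFP+ pair. The probes of Mdk ranged from -1.70 to 0 on the log2 scale, and those of Dmkn from 0 to 1.77.

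The null GFP+ libraries lay on the het GFP+ side for some genes apart and on the null GFP- side for others. Of the 91 genes higher in het GFP+, both null GFP+ libraries lay on the het GFP+ side of the midpoint for 29 (31.9%), on the null GFP- side for 39 (42.9%), and 1 on each side for 23 (25.3%). Of the 115 lower genes these counts were 56 (48.7%), 33 (28.7%) and 26 (22.6%). Over all genes the shares were 34.1%, 39.2% and 26.7%, close to those of the higher genes. Acta1, Pvalb and Mpo were dim in both null GFP+ libraries and lay nearer to null GFP- there, while Ptn and Cish were bright in both, again nearer to null GFP-. The class II genes, Prss34 and Napsa were dim in both and lay nearer to het GFP+.

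The libraries numbered 3 leaned the same way. Across the 9975 genes, het GFP+ minus null GFP- and null GFP+ 3 minus null GFP+ 1, which share no library, correlated at r = -0.25 (Spearman rho = -0.27). This is a description over genes of arrays that share 1 normalization. The signs were opposite for 146 of the 206 genes apart (70.9%) and for 60.1% of all genes. Of the higher genes 64 of 91 were lower in null GFP+ 3 than in null GFP+ 1, and of the lower genes 82 of 115 were higher in it. Ifi205, Cxcl13, C7, Acta2, Igf2 and Dlk1 all showed this order, whereas Myl1, Xist, Ptn and Cish did not, or differed within the null GFP+ pair by far less than between het GFP+ and null GFP-. Het GFP+ is number 2 and null GFP- number 3, so whatever the number stands for cannot be told apart from the label.

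Several genes sat on the edge of the call. Just inside it were Eif4b (at least 1.00 on the log2 scale) and Tmem189 (1.00) on the higher side, and Zcchc3 (at least 2.00-fold) and Egr3 (2.00-fold) on the lower side. Just outside were C1qb, Gpr137b and Eif2s3y, each rounding to 1.00, on the higher side, and Pglyrp1 (-0.99) and Gap43 (-0.99) on the lower side. Of the 69 genes apart with several tested probes, every probe pointed the same way for 56, every probe was over 2-fold for 23, and 6 had a probe that pointed the other way.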

How the data were processed

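Each of the 4 libraries of sorted adipose cells was read on 1 Illumina Mouse-6 V2 BeadChip. The intensities deposited by the authors are linear and already share a distribution (sorted arrays deviated by at most 0.380%). The normalization behind them was not given in the sources used here. A second table of deposited detection p-values has columns that match no label, so these were used only where the column's identity does not matter, and its 4 signal columns were not used.

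Background was corrected by normexp with detection p-values (limma 3.58.1, R 4.3.3) on the shared distribution, with a mean of 108 and an SD of 13.6 intensity units, followed by an offset of 16, log2 and quantile normalization. The array has 45281 probes, of which 34885 carry 1 gene symbol, 18 several and 10378 none. Gene numbers matched RefSeq (GRCm38.p6) for 34807, which altered 0 symbols. Detection at p under 0.01 by 1 array or more kept 17379 probes, with the brightest on average representing each of 9975 genes. The detection signal of 154 is the highest of the 4 detection columns' limits (lowest 150.5). No test was possible with 1 library on each side. The number of arrays, signal over background and the choice of probe limit the precision.

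The comparison, the genes and the lists were chosen with earlier results of these data known. Named genes were the 12 largest higher and 12 largest lower beyond the null GFP+ difference, up to 4 members of each list over 2-fold or else its 2 largest, all sex-linked genes and 8 genes the paper names. Clone and predicted names were passed over among the largest. The 5 lists named in the text as made later, and some further list members and edge cases, were chosen after their values were seen. The call rule was tested on simulated data with less noise than the null GFP+ pair showed. Differences were planted only in genes well above the detection signal, so the simulation does not cover dim genes. Promoters came from RefSeq (GRCm38.p6). Alternatives changed the bound, the probe choice, the filter, the normalization, the offset or the background correction, or left out a null GFP+ library.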

Additional observations from a re-analysis of the deposited data

How the results depend on the processing

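Called genes were counted again under 10 alternatives. Without background correction 46 genes were higher and 46 lower in het GFP+, 88 were apart beyond the null GFP+ difference, and 97 were apart within the null GFP+ pair. With an offset of 50 these counts were 57, 71, 122 and 161, and with normexp fitted to signals alone and that same offset they were 52, 59, 107 and 127. With no bound at the detection signal 175 genes were lower and 125 higher. Leaving out null GFP+ replicate 1 or 3 gave 90 to 92 higher and 113 lower genes. Without quantile normalization or without the detection filter the 4 counts did not move. Both outcomes were all but fixed in advance, so they are no check. The deposited arrays already share a distribution, and a call requires the brighter library to exceed the detection signal. With detection on 2 arrays or the mean of probes the 4 counts stayed within 1.5-fold of the main counts. Of 76 named genes over 2-fold, all kept their direction under the 10 alternatives, except that 5 were not tested with detection on 2 arrays, and 50 stayed over 2-fold without background correction.

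Small folds of dim genes depend on the background correction, and 1 library on each side gives no error. No paired analysis was possible because the comparison has 1 library in each group and no test, and its libraries carry different numbers.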
